A study of Mus musculus with 15 samples.

Results

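The 9 genes that steer CD4+ T cells towards the gut, out of lymphoid organs or into tissue and that are described here come from the 55421 genes in the count tables. The set is given by symbol and no measured value enters the rule: the integrin chains Itga4, Itgb7, Itgb1 and Itgae, the egress receptor S1pr1 and its regulator Klf2, the retention receptor Cd69, and the gut homing receptors Ccr9 and Gpr15. The RNA came from T cells sorted from spleen or from mesenteric lymph nodes (mLN) of Rag2-/- mice, which have no T or B cells of their own, 6 weeks after they received naive CD4+ T cells in a model of transfer colitis. Every donor mouse carried Prkaa1 fl/fl on a C57BL/6 background, and Prkaa1 encodes the catalytic subunit AMPKα1. Donors of WT cells had no Cre. Donors of KO cells also carried CD4-Cre, which acts during T cell development in the thymus, so that the allele is lost well before transfer and in CD8+ T cells too. The mice were 6 to 8 weeks old when used, and no group carried Prkaa1 without loxP sites. There were 4 samples each of WT spleen, KO spleen and KO mLN, and 3 of WT mLN (numbered 1, 2 and 4).

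A T cell enters the gut wall when the integrin α4β7, the dimer of Itga4 and Itgb7, binds MAdCAM-1 on its vessels, and CCR9 and GPR15 add direction to the small intestine and the colon. To leave a lymph node or the spleen, a T cell senses sphingosine-1-phosphate in blood and lymph through S1PR1, whose gene is driven by the transcription factor KLF2. CD69 binds S1PR1 and takes it off the surface, which holds activated cells in place, and αEβ7, the dimer of Itgae and Itgb7, binds E-cadherin on epithelium.

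Reads on genes came to 9363940 to 11283439 per sample (median 10545309), and levels are given as CPM, the reads on a gene per 1e6 of these. At this depth a count of 3, taken as the floor, stands for 0.266 to 0.320 CPM, and all 9 genes lay above it in every sample. Prkaa1 itself had 51.1 ± 3.71 CPM (SD, n = 4) in WT and 20.1 ± 1.38 (n = 4) in KO spleen, and 53.3 ± 6.57 (n = 3) and 27.7 ± 5.37 (n = 4) in mLN, with no overlap in either organ. The 8 T cell markers summed to 6948 to 8758 CPM in every sample. Other lists were uneven. Red cell genes summed to 1415 CPM in WT spleen replicate 3 and 688.8 in replicate 4, against at most 94.4 in the other spleen samples, and to 569.4 in WT mLN replicate 4. Natural killer cell genes summed to 97.0 to 110.4 CPM in KO against 51.2 to 74.2 in WT spleen, and to 82.15 to 123.8 in KO against 44.25 to 59.2 in WT mLN. Of the 4 of them tested in each organ only Eomes was called between genotypes, higher in KO in both. The CD8 genes Cd8a and Cd8b1 summed to 2.56 to 5.11 CPM in WT and 1.61 to 4.34 in KO spleen, and to 7.18 to 11.6 in WT and 18.9 to 28.2 in KO mLN, with Cd8a called higher in KO mLN than in KO spleen. The part of these cells in the results below was not tested, and in bulk RNA fewer cells of a type and less RNA per cell cannot be told apart.

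Within the WT spleen group the 9 genes moved together. Replicate 3 had the lowest CPM of its group for all 9 genes, and replicate 4 had the highest for 8 of 9, the exception being Klf2. Over all 15438 genes tested in the 15 samples, replicate 3 was lowest for 32.7% and replicate 4 highest for 32.1%. In KO spleen, replicate 2 was highest for 8 of the 9 genes (28.3% of all genes). Scaling by TMM, which corrects for differences in composition between libraries, left the counts for these WT samples as they were and gave 7 of 9 for KO spleen replicate 2. These 2 WT spleen samples, at opposite ends of their group, are also those with the most red cell RNA, whose part was not tested. No mLN sample numbered 3 was analysed in WT, and the paper left out a WT mLN sample on grounds of quality.

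**Figure D1:**
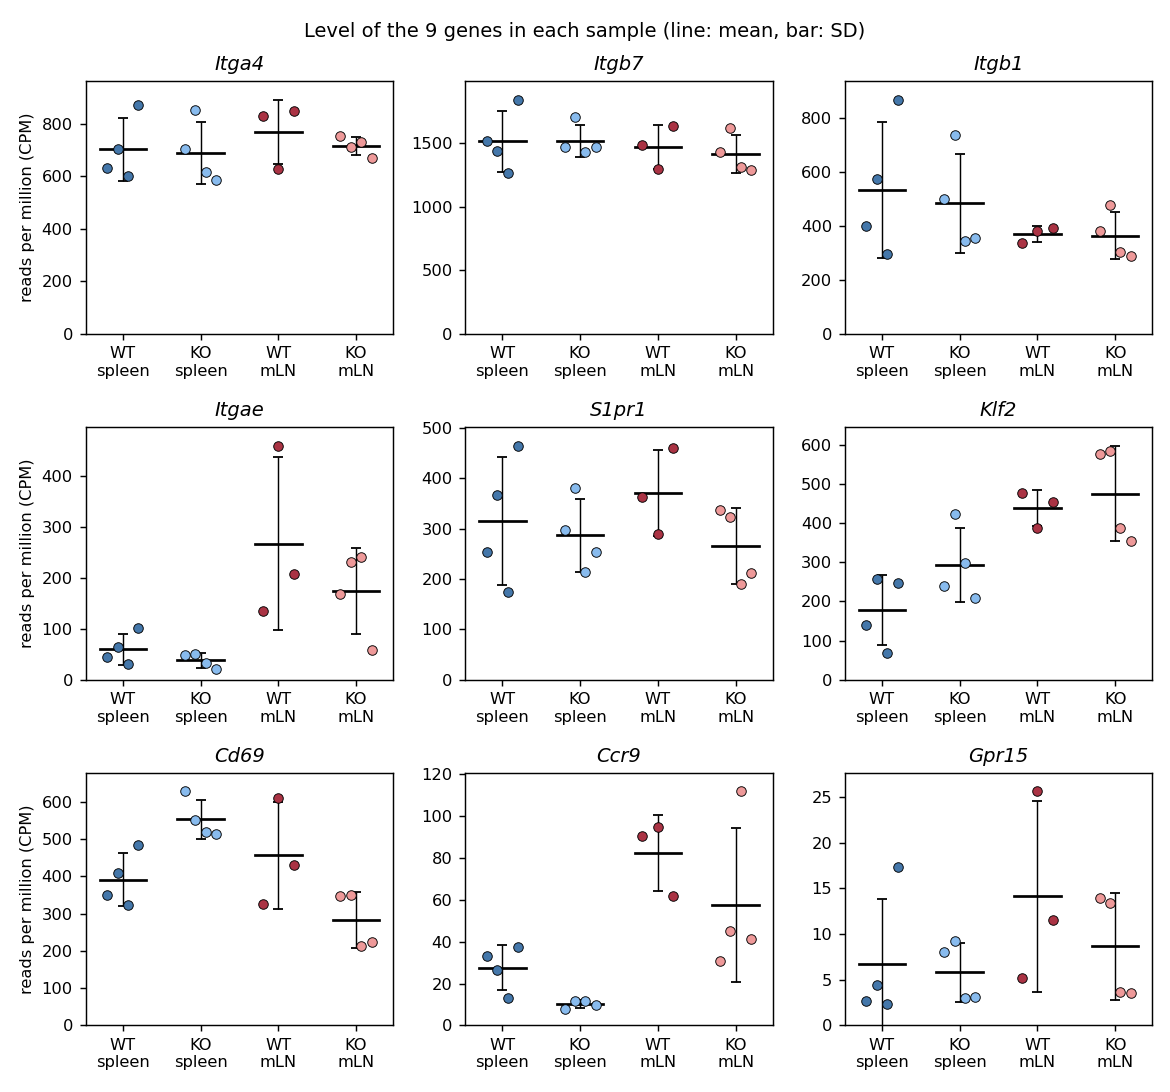
CPM of the 9 genes in each of the 15 samples, 1 panel a gene with its own vertical axis from 0; points are samples, lines are group means and bars are 1 SD (cut at 0 for Gpr15 in WT spleen). Ccr9 sits between 7.77 and 11.7 in KO spleen, below every WT spleen sample, and Itgae and Ccr9 sit higher in mLN than in spleen in both genotypes.

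The question of the study's design, whether loss of AMPKα1 changes these cells, was asked in each organ with edgeR's quasi-likelihood test over all genes. A gene was called at a Benjamini-Hochberg adjusted p under 0.05. In spleen 1 of the 9 genes was called, Ccr9, which was lower in KO, against 1.30% of the 14254 genes tested there. DESeq2 called 2 (Ccr9 and Cd69), beside 799 of the 35239 genes it tested. It was run without a filter on level, so these include genes with few reads that edgeR left out. Its share over all genes is thus not comparable with that of edgeR. In mLN edgeR called 0 of 9 (0.641% of 14359 genes). At an unadjusted p under 0.05 from edgeR there were 2 (Cd69 and S1pr1), beside 2253 of 14359 genes. DESeq2, again without a filter on level, called 0 of the 9, beside 561 of 33658 genes. The CPM of the genotypes did not overlap for 2 of 9 genes in spleen, Ccr9 and Cd69, where 12.0% of all genes did not, and for 0 of 9 in mLN, where 14.4% did not. The median log2 fold change of the 9 genes, KO against WT, was −0.12 in spleen and −0.49 in mLN, and that of all genes tested was 0.00 in both. In mLN 8 of the 9 estimates were negative, with 0 of 9 called by edgeR. KO mLN replicate 4 had the lowest CPM of its group for 6 of the 9 genes (27.2% of all genes). The 9 estimates come from the same samples and are not independent of each other.

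**Figure D2:**
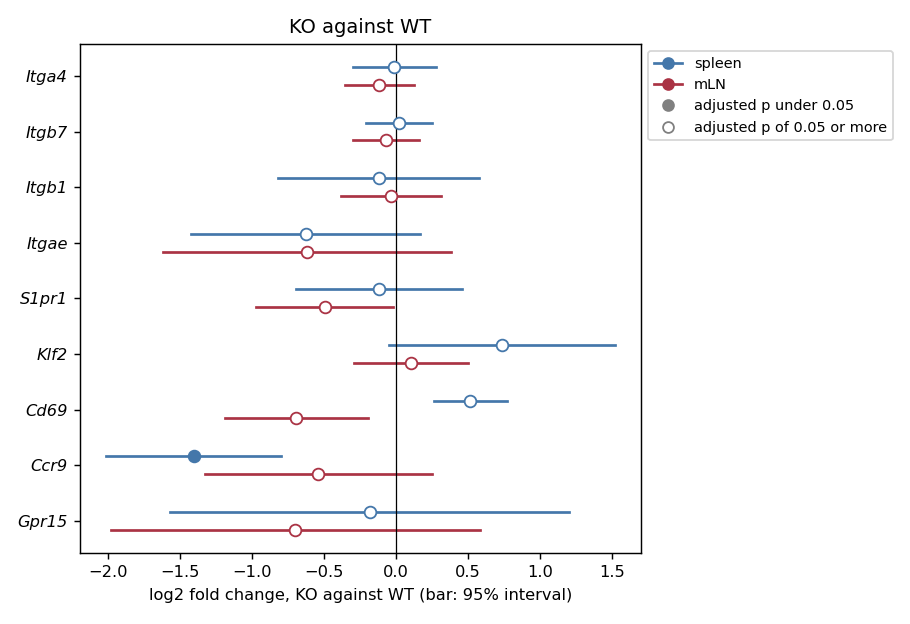
Log2 fold change of KO against WT for the 9 genes in spleen (blue) and mLN (red), with 95% intervals from edgeR; a filled point is an adjusted p under 0.05. Ccr9 in spleen (−1.40) is the filled point, and Cd69 lies at 0.52 in spleen and −0.69 in mLN.

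The organs were compared within each genotype in the same way, without pairing samples of the same number. Against spleen, mLN cells of WT had 3 of the 9 genes called, all higher (Itgae, Ccr9 and Klf2), where 20.5% of 14515 genes were called. Those of KO had the same 3 genes called higher and Cd69 called lower, 4 of 9, where 25.3% of 14240 genes were called. The CPM of the organs did not overlap for 3 of 9 genes in WT (Itgae, Klf2 and Ccr9; 31.5% of all genes) and 3 of 9 in KO (Itgae, Cd69 and Ccr9; 28.7%). The median log2 fold change of the 9 genes was 0.29 in WT and 0.06 in KO, beside 0.00 and 0.01 over all genes. These comparisons share their samples with those of KO against WT. With the replicate number as a block, Itgb1 passed too, lower in mLN, in WT and in KO.

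**Figure D3:**
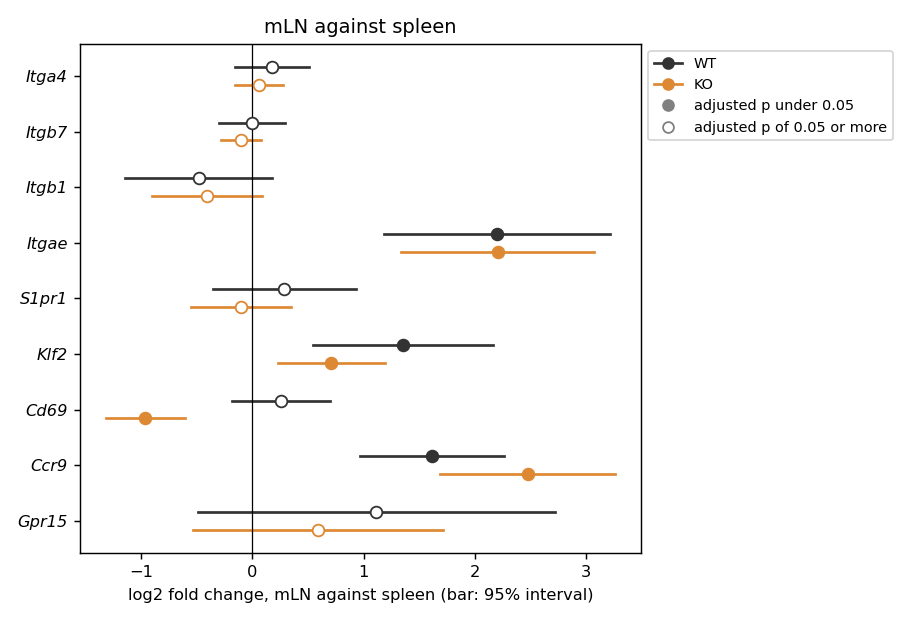
Log2 fold change of mLN against spleen for the 9 genes in WT (black) and KO (orange), with 95% intervals from edgeR; a filled point is an adjusted p under 0.05. Itgae lies at 2.20 in both genotypes, and Cd69 at 0.26 in WT and −0.96 in KO.

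Of the integrin chains, Itga4 and Itgb7, the pair that forms α4β7, passed the threshold in no comparison of genotypes or organs. Itga4 (ENSMUSG00000027009, GRCm38 chromosome 2, 79255426 to 79333123, + strand) ranged from 601 to 871 CPM in WT spleen, 586 to 849.65 in KO spleen, 627 to 849.6 in WT mLN and 668 to 751 in KO mLN. Its exons overlap those of Cerkl on the other strand by 1124 bases, and the strand counted was not stated, so some of its reads may belong to Cerkl, which had at most 911 counts of its own. Itgb7 (ENSMUSG00000001281, chromosome 15, 102215995 to 102231944, − strand) ranged from 1271 to 1844.5, 1434 to 1709, 1296 to 1638 and 1288 to 1620.1 CPM in the same order. The 95% interval of the log2 fold change, KO against WT, ran from −0.30 to 0.28 in spleen and −0.36 to 0.13 in mLN for Itga4. For Itgb7 it ran from −0.21 to 0.25 and from −0.30 to 0.16. Between organs the intervals were −0.16 to 0.51 in WT and −0.16 to 0.28 in KO for Itga4, and −0.30 to 0.29 in WT and −0.28 to 0.08 in KO for Itgb7, so a change of 2-fold lay outside all 8 intervals. Itgb7 was lower in mLN in 3 of 3 WT pairs of spleen and mLN samples, by 0.03 to 0.17 on the log2 scale, and with these pairs as a block its log2 fold change was −0.07 (adjusted p = 0.438 from edgeR).

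Per kilobase of exon Itgb7 was the most abundant of the 9 genes, at a mean of 511 to 549 CPM per kb in the 4 groups. Itgb1, the β1 chain that pairs with α4 to bind VCAM-1 and fibronectin, stood at 89.1 to 131, and Itga4 at 49.3 to 54.9. Itgb7 thus exceeded Itgb1 in each sample, by 3.13 to 6.35 times in WT spleen, 3.41 to 6.13 in KO spleen, 5.02 to 6.48 in WT mLN and 4.98 to 6.54 in KO mLN. These ratios overlapped between all groups. The lengths merge the exons of all annotated transcripts, 13978 bases for Itga4, 4081 for Itgb1 and 2770 for Itgb7. Levels per kilobase compared between genes are therefore uncertain.

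Itgb1 (ENSMUSG00000025809, chromosome 8, 128685654 to 128733200, + strand) varied most in spleen. WT spleen replicates 1 to 4 had 399, 573, 295 and 868 CPM, and KO spleen 499.9, 739, 345 and 356. In mLN WT replicates 1, 2 and 4 had 338, 380.2 and 392, and KO 383, 479, 302 and 290.4. Genotypes overlapped in both organs, with a log2 fold change of −0.12 (SE 0.32) in spleen and −0.03 (SE 0.16) in mLN. In mLN against spleen it was −0.48 (SE 0.29, adjusted p = 0.282 from edgeR) in WT and −0.41 (SE 0.23, adjusted p = 0.216) in KO. With the replicate number as a block, which in WT pairs spleen and mLN samples, the WT value was −0.61 (SE 0.14) and passed (adjusted p = 0.00842 from edgeR), each of the 3 WT mLN samples lying below the spleen sample of its number.

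Itgae, the αE chain known as CD103 and a marker of cells that stay in epithelium, was called higher in mLN than in spleen in both genotypes. The gene (ENSMUSG00000005947, chromosome 11, 73090583 to 73147446, + strand) had 43.4, 64.4, 29.8 and 100.8 CPM in WT spleen and 48.7, 51.0, 32.9 and 19.9 in KO spleen. In mLN it had 134.9, 459.8 and 207 in WT and 168, 232, 241 and 57.9 in KO. Spleen and mLN did not overlap within a genotype, although KO mLN replicate 4 lay below the highest WT spleen sample. The ratio of means was 4.48 in WT (log2 fold change 2.20, SE 0.45, adjusted p = 0.0097 from edgeR) and 4.58 in KO (2.20, SE 0.40, adjusted p = 0.00212), and both calls held with any 1 sample left out. The WT value rested in part on mLN replicate 2, without which it was 1.58 (adjusted p = 0.0333). The CD8 genes, with the sums given above, were also higher in every mLN sample than in every spleen sample of the same genotype, and their part in the Itgae and Ccr9 differences was not tested. Per kilobase, Itgae was 0.151 to 0.353 times Itga4 in WT spleen, 0.104 to 0.212 in KO spleen, 0.498 to 2.24 in WT mLN and 0.264 to 1.01 in KO mLN. The merged exons used were 4581 bases for Itgae and 13978 for Itga4, so the size of this ratio is uncertain. KO against WT, the log2 fold change was −0.63 (SE 0.36, adjusted p = 0.356 from edgeR) in spleen and −0.62 (SE 0.45, adjusted p = 0.57) in mLN, with intervals from −1.42 to 0.17 and −1.62 to 0.38. Without WT mLN replicate 2, the mLN value was 0.01. Group means of Itgae were 59.6 ± 30.9 (SD, n = 4) in WT and 38.2 ± 14.6 (n = 4) in KO spleen, and 267 ± 171 (n = 3) and 175 ± 84.3 (n = 4) in mLN.

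S1pr1, the receptor for exit, differed by neither genotype nor organ past the threshold. The gene (ENSMUSG00000045092, chromosome 3, 115710433 to 115715072, − strand) had 253, 366, 175 and 465 CPM in WT spleen and 298, 382, 214 and 253 in KO spleen. WT mLN had 363, 290.3 and 461, and KO mLN 338, 322, 189 and 212. The genotypes overlapped in both organs. KO against WT, its log2 fold change was −0.12 (SE 0.26, adjusted p = 0.84 from edgeR) in spleen and −0.49 (SE 0.22, unadjusted p = 0.0433, adjusted p = 0.301) in mLN, where leaving out any 1 sample gave −0.65 to −0.31. Between organs it was 0.29 (interval −0.36 to 0.93) in WT and −0.10 (−0.55 to 0.35) in KO.

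Klf2, which also keeps T cells quiescent, was higher in mLN than in spleen. The gene (ENSMUSG00000055148, chromosome 8, 72319033 to 72321656, + strand) had 141, 258, 68.0 and 246 CPM in WT spleen and 241, 424, 297 and 209 in KO spleen. In mLN it had 477, 389 and 454 in WT and 578, 586, 387 and 354 in KO. Every WT mLN sample exceeded every WT spleen sample, whereas in KO the organs overlapped through KO spleen replicate 2. The ratio of means, mLN to spleen, was 2.47 in WT (log2 fold change 1.35, SE 0.36, adjusted p = 0.027 from edgeR) and 1.63 in KO (0.71, SE 0.22, adjusted p = 0.0337). Both calls were near the threshold. In WT the adjusted p rose to 0.0527 to 0.0772 without spleen replicate 1 or without any 1 of the mLN samples. In KO it rose to 0.0696 to 0.0964 without spleen replicate 1, 3 or 4 or mLN replicate 1 or 2, and DESeq2 gave 0.0603. Over the alternatives with all samples the adjusted p in KO ran from 1.12e-14 (edgeR without a filter) to 0.0974 (1 edgeR fit of all 15 samples). The next smallest was 0.00383, from edgeR with the replicate number as a block. Without WT spleen replicate 3, whose Klf2 level was the lowest of the 15 samples, the WT difference was 1.09 (adjusted p = 0.00949 from edgeR).

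KO against WT, Klf2 had a log2 fold change of 0.74 in spleen (SE 0.35, interval −0.05 to 1.52, adjusted p = 0.269 from edgeR) and 0.10 in mLN (SE 0.18, interval −0.29 to 0.50, adjusted p = 0.831). The means in spleen were 178 ± 90.5 (SD, n = 4) CPM in WT and 293 ± 94.7 (n = 4) in KO, and the groups overlapped. Klf2 and S1pr1 thus differed between organs by unlike amounts in these samples: in WT, Klf2 had 2.47 times and S1pr1 1.18 times its spleen level in mLN, and in KO 1.63 and 0.926 times. The difference between both genes was not tested.

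The sequence around the start of a gene is where KLF factors can bind, at boxes with the letters CACCC, so the promoters of Klf2 itself and of Ccr9, which both were higher in mLN, are shown for reference. RefSeq sequence of GRCm38.p6 was at hand for 6 of the 9 genes (Itga4, Itgb7, Itgb1, Klf2, Ccr9 and Gpr15). The 250 bases before the RefSeq start are printed 5′ to 3′, both on the + strand, with CACCC or its reverse complement GGGTG in capitals. For both genes this start lies inside a longer GENCODE span, so that the last bases shown of Klf2, with its match, are within the gene as GENCODE draws it.
Klf2 (chr8:72318812-72319061): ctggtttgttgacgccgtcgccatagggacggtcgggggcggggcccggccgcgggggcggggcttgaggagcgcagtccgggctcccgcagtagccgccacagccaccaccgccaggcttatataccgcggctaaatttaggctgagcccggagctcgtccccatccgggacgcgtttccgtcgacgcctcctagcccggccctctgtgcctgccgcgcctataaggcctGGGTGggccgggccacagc
Ccr9 (chr9:123766961-123767210): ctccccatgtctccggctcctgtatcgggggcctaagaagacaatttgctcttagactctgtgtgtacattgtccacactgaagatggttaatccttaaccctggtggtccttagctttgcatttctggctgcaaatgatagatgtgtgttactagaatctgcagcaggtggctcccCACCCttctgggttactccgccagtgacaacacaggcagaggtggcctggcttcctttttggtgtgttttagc
Each has 1 match, at −19 bases in Klf2 and −73 in Ccr9 (first base of the match). Itga4 and Itgb7, which were not called, have 4 matches each, Itgb1 has 2 and Gpr15 has 1. On either strand 52% of 32851 such windows hold the motif.

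Cd69, the early activation receptor that holds cells back, had a higher mean in KO in spleen and a lower mean in KO in mLN, and neither difference passed in edgeR. The gene (ENSMUSG00000030156, chromosome 6, 129267325 to 129275436, − strand) had 349, 409, 324 and 485 CPM in WT spleen and 628, 552, 519.8 and 513.5 in KO spleen. In mLN it had 326, 610.4 and 432 in WT and 349, 349.6, 212 and 223 in KO. All 4 KO spleen samples lay above all 4 WT spleen samples, while in mLN the genotypes overlapped.

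In spleen the means of Cd69 were 392 ± 71.7 (SD, n = 4) CPM in WT and 553 ± 52.7 (n = 4) in KO, a log2 fold change of 0.52 (SE 0.11, interval 0.26 to 0.77). This missed the threshold in edgeR (unadjusted p = 0.000969, adjusted p = 0.0566) and passed in DESeq2 (adjusted p = 0.000916). Without WT spleen replicate 4, the highest WT sample, edgeR gave 0.63 (adjusted p = 0.0239). Over the alternatives with all samples the adjusted p ran from 7.28e-07 (edgeR without a filter) to 0.213 (1 edgeR fit of all 15 samples). The next smallest was 0.000916, from DESeq2. In mLN the means were 456 ± 144 (n = 3) in WT and 283 ± 76.2 (n = 4) in KO, a log2 fold change of −0.69 (SE 0.23, interval −1.19 to −0.20, unadjusted p = 0.0108, adjusted p = 0.186 from edgeR). The difference between these differences, the genotype by organ interaction, was −1.21 (SE 0.27, interval −1.79 to −0.63), with an unadjusted p of 0.000435, the 6th smallest of 15438 genes, and an adjusted p of 0.825 in edgeR. DESeq2 gave an adjusted p of 0.106 and the fit with the replicate number as a block 0.17. No gene of the 15438 passed this test (0%, with 652 at an unadjusted p under 0.05, and 2 called by DESeq2). Among the 9 genes 1 had an unadjusted p under 0.05, Cd69, and DESeq2 called 0.

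Between organs, KO mLN cells had 0.512 times the Cd69 level of KO spleen cells (log2 fold change −0.96, SE 0.16, adjusted p = 0.0014 from edgeR), and the organs did not overlap. The call held in 8 of 8 fits with 1 sample left out. In WT the log2 fold change was 0.26 (SE 0.20, interval −0.18 to 0.70, adjusted p = 0.387 from edgeR).

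**Figure D4:**
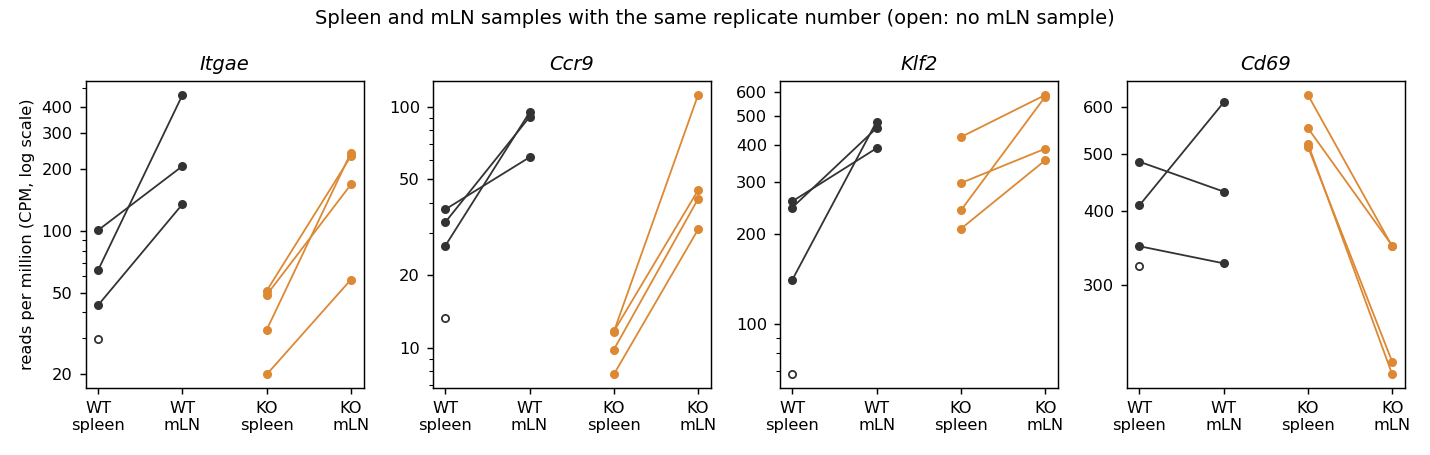
CPM on a log axis of Itgae, Ccr9, Klf2 and Cd69 in spleen and mLN samples of 1 genotype with the same replicate number, joined by a line (WT black, KO orange); the open point is WT spleen replicate 3, which has no mLN sample. The lines of Itgae, Ccr9 and Klf2 rise in both genotypes and those of Cd69 fall in KO; where the organs do not overlap, any way of joining the samples would give this.

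Ccr9, the receptor for CCL25 of the small intestine, was the 1 gene of the 9 called between genotypes, with KO spleen cells at 0.371 times the WT level. Its annotated span (ENSMUSG00000029530, chromosome 9, 123678439 to 123784330, + strand) includes a far upstream exon, and its merged exons of 10260 bases overlap those of AC165425.1 on the other strand by 1932 bases and of Gm17200 on the same strand by 269, which had at most 53 and 149 counts. Its level per kilobase, a mean of 0.999 to 8.02 CPM per kb in the 4 groups, is therefore uncertain. WT spleen samples had 33.2, 26.5, 13.3 and 37.5 CPM, and KO spleen samples 7.77, 11.7, 11.7 and 9.84. In mLN it had 90.6, 94.6 and 61.7 in WT and 31.0, 45.1, 111.8 and 41.5 in KO. The spleen groups did not overlap, the nearest values being 13.3 in WT replicate 3 and 11.7 in KO, whereas in mLN KO replicate 3 had the highest value of all samples and the other 3 KO samples lay below every WT sample.

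KO against WT, the log2 fold change of Ccr9 in spleen was −1.40 (SE 0.28, interval −2.01 to −0.80, adjusted p = 0.0444 from edgeR), with 74 to 131 counts per KO sample and 140 to 374 per WT sample. The call rested on all samples being present: without any 1 of the 8 except WT replicate 3 the adjusted p was 0.0786 to 0.121, and without that sample 0.00319, with log2 fold changes from −1.63 to −1.23. DESeq2 gave 5.43e-05 and 1 edgeR fit of all 15 samples 0.0945. Over the alternatives with all samples the adjusted p ran from 8.82e-15 (edgeR without a filter) to 0.12 (edgeR with the replicate number as a block). The next smallest was 5.43e-05, from DESeq2. This block joins WT and KO samples that the labels link by number alone. Deviations of same-numbered spleen samples correlated at −0.038 on average, against 0.013 for unlike numbers. In mLN the log2 fold change was −0.54 (SE 0.36, interval −1.33 to 0.25, adjusted p = 0.524 from edgeR), and −1.08 without KO mLN replicate 3 (adjusted p = 0.0741). The interaction was 0.86 (SE 0.51, interval −0.22 to 1.95, adjusted p = 1 from edgeR), so a smaller difference in mLN than in spleen was not shown.

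Ccr9 was higher in mLN than in spleen in both genotypes. The ratio of means was 2.98 in WT (log2 fold change 1.62, SE 0.29, adjusted p = 0.00519 from edgeR) and 5.60 in KO (2.48, SE 0.36, adjusted p = 0.000546), and both calls held without any 1 sample. The order of the 4 groups by mean was KO spleen (10.2 ± 1.87, SD, n = 4), WT spleen (27.6 ± 10.6, n = 4), KO mLN (57.3 ± 36.8, n = 4) and WT mLN (82.3 ± 18.0, n = 3). Neighbours in this order overlapped except KO spleen and WT spleen.

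Gpr15, which draws T cells to the large intestine, had few reads, 25 to 259 counts per sample. The gene (ENSMUSG00000047293, chromosome 16, 58717433 to 58719070, − strand) is a single exon of 1638 bases, of which 204 overlap Cpox on the other strand (at most 597 counts). WT spleen samples had 2.62, 4.38, 2.37 and 17.3 CPM and KO spleen samples 7.98, 9.21, 3.01 and 3.10. In mLN it had 5.18, 25.6 and 11.6 in WT and 14.0, 13.4, 3.67 and 3.57 in KO. All groups overlapped, and the SD in WT spleen (7.17) exceeded the mean (6.68). Its intervals were the widest of the 9 genes, from −1.57 to 1.20 for KO against WT in spleen and −1.98 to 0.58 in mLN. In mLN against spleen the log2 fold change was 1.11 in WT (SE 0.71, adjusted p = 0.304 from edgeR) and 0.59 in KO (SE 0.51, adjusted p = 0.437); without WT spleen replicate 4, the WT value was 2.20 and passed (adjusted p = 0.0227).

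Another 84 genes of the same processes, in 6 lists, were read beside the 9. The lists, like the 9 genes, were chosen with earlier results of these data known. Their shares, here and below, are therefore given beside those of all genes as a description only. KO against WT, edgeR called 1 of 76 tested in spleen (1.32%, beside 1.30% of all genes) and 0 of 73 in mLN (0.641% of all genes), so by these calls the share was near that of all genes. At an unadjusted p under 0.05 from edgeR there were 15 of 76 and 22 of 73. Over all genes there were 2924 of 14254 in spleen and 2253 of 14359 in mLN, so the mLN share of the lists was the higher. DESeq2 called 4 in each organ, beside 799 of 35239 genes in spleen and 561 of 33658 in mLN, tested without a filter on level. The gene called in spleen was Tgfb1, the cytokine that induces Itgae, which was higher in KO at 51.2 ± 3.84 against 36.4 ± 2.67 CPM (SD, n = 4 each; log2 fold change 0.51, SE 0.09, adjusted p = 0.0391). In mLN against spleen 25 of 76 were called in WT and 28 of 75 in KO, 32.9% and 37.3%, where 20.5% and 25.3% of all genes were.

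**Figure D5:**
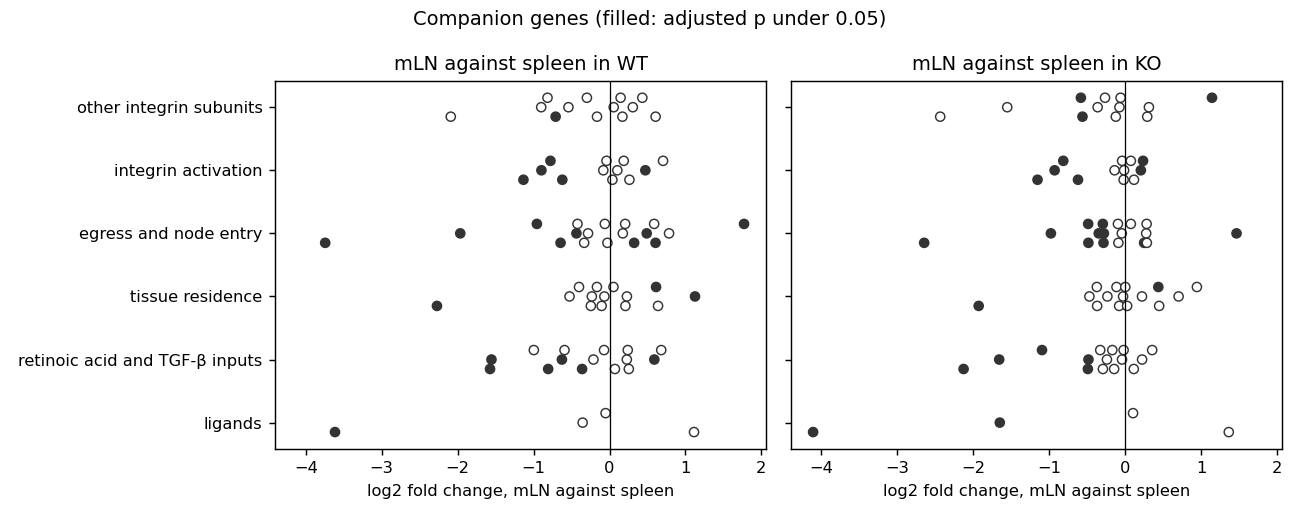
Log2 fold change of mLN against spleen for each tested gene of the 6 lists, in WT (left) and KO (right); a filled point is an adjusted p under 0.05 in edgeR. Of the egress and node entry genes 9 of 18 are filled in WT and 10 of 17 in KO (20.5% and 25.3% of all genes).

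Among egress and node entry genes 4 rose and 5 fell from spleen to mLN in WT, of 18 tested, and 2 rose and 8 fell in KO, of 17, so that 9 of 18 and 10 of 17 were called where 20.5% and 25.3% of all genes were. Arhgef1, which carries signals of S1P receptors to RhoA, fell from 1214 ± 101 to 609 ± 58.1 CPM in WT (log2 fold change −0.96, adjusted p = 0.00036 from edgeR) and from 1160 ± 108 to 588 ± 59.0 in KO (−0.98, adjusted p = 1.24e-05). S1pr5, another S1P receptor, fell from 13.2 ± 3.77 to 3.26 ± 1.28 CPM in WT (−1.97, adjusted p = 0.00533 from edgeR) and from 23.8 ± 8.50 to 3.75 ± 1.92 in KO (−2.65, adjusted p = 0.000374). The S1P-producing kinase Sphk1 had 1.49 ± 0.286 CPM in WT spleen and was under the floor on average in WT mLN. The kinase Stk4, which supports adhesion and exit, fell by 0.44 in WT and by 0.48 in KO on the log2 scale (adjusted p = 0.01 and 0.000846 from edgeR). The node homing receptor Ccr7 rose from 51.2 ± 32.5 to 170.2 ± 88.8 CPM in WT (1.77, adjusted p = 0.0234 from edgeR) and from 36.1 ± 14.9 to 99.2 ± 12.6 in KO (1.47, adjusted p = 0.00128).

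Of the genes that switch integrins on, 1 rose and 4 fell in WT and 2 rose and 4 fell in KO, of 12 tested in each (5 and 6 called, where 20.5% and 25.3% of all genes were). Talin, Tln1, which binds the β chain tail, fell from 689 ± 31.6 to 305 ± 27.9 CPM in WT (−1.13, adjusted p = 0.000197 from edgeR) and from 686 ± 25.7 to 308 ± 16.4 in KO (−1.15, adjusted p = 6.33e-07). Apbb1ip (RIAM), which brings talin to Rap1, fell by 0.62 in WT and by 0.81 in KO (adjusted p = 0.00169 and 2.22e-05 from edgeR). Rapgef1 fell in both (−0.78 and −0.62), and Rap1b rose in both (0.47 and 0.24). The adaptor Fyb passed in KO (0.21) and not in WT (0.26, adjusted p = 0.0731 from edgeR). Of other integrin subunits 1 fell in WT, of 13 tested (7.69%), and 1 rose and 2 fell in KO, of 12 (25.0%), shares no higher than those of all genes (20.5% and 25.3%). Itgal, the LFA-1 α chain, fell in both (−0.71 and −0.58). Itgav fell in KO (−0.56, and −0.30 in WT without passing) and Itgax rose in KO (1.15, to 8.66 ± 2.03 CPM, and 0.15 in WT without passing).

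Of genes linked to tissue residence, 2 rose and 1 fell in WT, of 14 tested, and 1 rose and 1 fell in KO, of 15. These shares of 21.4% and 13.3% were near or under those of all genes (20.5% and 25.3%). Zfp683 (Hobit) fell from 10.3 ± 3.30 to 2.07 ± 0.786 CPM in WT (−2.27, adjusted p = 0.00254 from edgeR) and from 7.73 ± 0.745 to 2.03 ± 0.680 in KO (−1.93, adjusted p = 0.000389), the opposite direction to Itgae. Rgs1 rose from 271 ± 63.5 to 577 ± 158 CPM in WT (1.13, adjusted p = 0.00784 from edgeR) and from 253 ± 30.6 to 342 ± 75.2 in KO (0.44, adjusted p = 0.0473), and the lipid carrier Fabp5 rose in WT (0.61, and 0.45 in KO without passing). Of the receptors and mediators of retinoic acid and TGF-β, which induce Ccr9 and Itgae, 1 rose and 5 fell in WT and 0 rose and 5 fell in KO, of 15 tested in each (40.0% and 33.3% called, beside 20.5% and 25.3% of all genes). Tgfb1 fell from 36.4 ± 2.67 to 12.1 ± 3.45 CPM in WT and from 51.2 ± 3.84 to 11.7 ± 2.78 in KO, and the retinoic acid receptor gene Rarg from 56.6 ± 7.06 to 18.5 ± 2.37 and from 71.0 ± 12.1 to 22.5 ± 4.09. The receptor chain Tgfbr2 fell by 0.36 in WT and by 0.49 in KO (adjusted p = 0.0154 and 0.000171 from edgeR), and Smad3 (−0.63 and −0.48) and Rara (−0.81 and −1.09) fell in both.

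Ligands of the 9 genes were tested as signs of other cells. Fibronectin, Fn1, had 9.03 ± 3.60 CPM in WT and 5.76 ± 2.87 in KO spleen and 0.682 ± 1.01 and 0.322 ± 0.413 in mLN, and was called lower in mLN in both genotypes. Vcam1 fell in KO from 48.2 ± 30.2 to 15.4 ± 5.67 CPM (−1.65, adjusted p = 0.00811 from edgeR) and had −0.35 in WT (adjusted p = 0.566). For the ligands 1 of 4 tested was called in WT and 2 of 4 in KO, beside 20.5% and 25.3% of all genes. The 6 macrophage and monocyte markers summed to 116.4 to 332.9 CPM in spleen and 47.2 to 200.6 in mLN, and 5 of 6 were called lower in KO mLN and 1 in WT mLN. Of 6 neutrophil markers 4 were called lower in mLN in each genotype. Their part in the organ differences was not tested.

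Over the 15 samples and 15438 genes, the genes whose log2 CPM ran most like that of Itgae were Apol9b (Pearson's r = 0.979), Ikzf4 (0.969) and Ldlrad4 (0.962). For Ccr9 they were Ssbp2 (0.948), Fbxw7 (0.916) and Gm26865 (0.915), and for S1pr1 Klrc1 (0.904), Cdc42se1 (0.881) and Swap70 (0.877). These are the highest of many values, the samples share organ and genotype groups, and the values are given as a description.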

How the data were processed

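RNA of sorted T cells was made into libraries with the NEBNext SingleCell/Low Input kit and read as single-end reads of 75 bases. Per the submitters' processing notes, bcl2fastq 2.19.1.403, STAR 2.6.1a, RSEM and DESeq2 1.22.2 were used, with GRCm38. The authors deposited raw counts per gene, with no normalization, and the strand used for counting is not given in the sources used here. A median of 60.9% of uniquely aligned reads lay on no gene, and 4 summary lines per table were kept out. The share on no gene was 60.38% to 63.36% in spleen and 58.41% to 60.97% in mLN. Reads that aligned to several places made up 7.7% to 8.33% of all reads in spleen and 8.62% to 9.44% in mLN. The part of this in the organ differences was not tested. Symbols, exons and coordinates came from a GENCODE M21 table of the same build (55154 of 55421 identifiers had a symbol).

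CPM used the total on genes. The counts were tested with edgeR 4.0.16 (filterByExpr, TMM, quasi-likelihood F test; R 4.3.3), fitting only the groups compared, or all 15 samples for the interaction, with Benjamini-Hochberg adjustment over all genes tested and a call at 0.05 without a fold minimum. The SE is the absolute log2 fold change over the square root of F, and intervals use edgeR's degrees of freedom. The procedure was also run on simulated data with the same level of spread for every gene. That run does not cover genes that vary more between samples, such as Itgae and Gpr15. Intervals and the floor of 3 counts cover counting error or the spread between these samples. The labels only number the replicates, and the study describes them as mice.

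Replicate numbers come from the labels. Deviations from the group means of samples with the same number correlated at 0.243 to 0.291 across genes in the 3 WT pairs of spleen and mLN, so these can be read as pairs. The calls reported come from fits without pairing. The pairs enter only through the alternative fit with the replicate number as a block.

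Alternatives were DESeq2 1.42.0, RLE scaling, no filter, at least 10 counts in every sample, a log2 fold limit of 1, the replicate number as a block, all 15 samples in 1 fit and each sample left out. Members are all named; of the other lists, the called genes with the smallest p, at most 4 a list and comparison, and for Itgae, Ccr9 and S1pr1 the 3 genes with the highest r of log2 CPM (prior count 2). Members and lists were chosen with earlier results of these data known, so none is independent evidence. Python 3.11.15 with pandas 2.3.3 and matplotlib 3.10.9 was used for tables and figures.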

Additional observations from a re-analysis of the deposited data

Results flagged for a closer look

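Of 27 groups of 4 values (9 genes in 3 groups), 2 held a sample far from the other 3, its gap to the nearest divided by the range being above the Dixon limit of 0.829, and chance alone passes about 1 in 20 groups. Itgb7 in KO spleen had its highest value in replicate 2, at 1709 CPM (gap to range 0.863), beside 1434 to 1472 in the others. Gpr15 in WT spleen had its highest value in replicate 4, at 17.35 CPM (gap to range 0.866), beside 2.37 to 4.38 in the others.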

How the results depend on the processing

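Counts of genes called moved more than the members' fold changes. In spleen, KO against WT, the 1 member and 185 genes called became 2 and 799 with DESeq2, 4 and 1422 without a filter, 0 and 17 with the replicate block, 0 and 85 in 1 fit of all samples, and 64 genes with a fold limit (0 to 1 and 12 to 324 with a sample left out). In mLN the 0 and 92 became 561 genes with DESeq2, 4 and 913 without a filter, 1 gene with the block, 500 in 1 fit of all samples and 47 with a fold limit (0 to 0 and 4 to 117 with a sample left out). Between organs, the 3 and 2980 in WT became 5 without a filter, 723 with a fold limit and 4 and 4351 with the block (2 to 4 and 1816 to 2780), and the 4 and 3602 in KO became 2 and 763 with a fold limit and 5 and 3814 with the block (3 to 4 and 2631 to 3669). The interaction's 0 and 0 became 3 and 112 without a filter, 2 genes with DESeq2 and 3 with the block (0 to 0 with a sample left out). The cause of these moves was not tested. Between genotypes the block joins samples that the labels link by number alone. Their deviations correlated at −0.038 in spleen and −0.016 in mLN on average. In mLN, KO replicate 3 has no WT match and then adds nothing to the difference. Without a filter edgeR gave far smaller adjusted p at like fold changes, such as 3.16e-97 against 0.00212 for Itgae in KO, mLN against spleen.

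The log2 fold change turned sign for Itga4 in spleen without a filter (0.007), Gpr15 in spleen (0.16) and Itgb1 in mLN (0.021) with the block, and Itgb7 between organs in WT in 1 fit of all samples (0.008) and without a filter (0.001), each KO against WT unless said. With a sample left out, signs turned in these ranges: in spleen Itga4 −0.12 to 0.10, Itgb7 −0.05 to 0.12, Itgb1 −0.39 to 0.21, S1pr1 −0.31 to 0.13 and Gpr15 −0.49 to 0.91; in mLN Itgb7 −0.16 to 0.013, Itgb1 −0.19 to 0.07, Itgae −0.93 to 0.014, Klf2 −0.013 to 0.23 and Gpr15 −1.09 to 0.041; between organs Itgb7 −0.089 to 0.10 in WT, and Itga4 0.00 to 0.16 and S1pr1 −0.24 to 0.054 in KO. Of 315 values of the members with a sample left out 289 had the sign of the reported value, and of 267 under the other settings 262 did.

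In KO, same-numbered spleen and mLN samples correlated at 0.026 to 0.259 (mean 0.124, against −0.041 for unlike numbers), not above 0.1 in every pair. Whether each such pair came from 1 mouse is not stated in the labels and was not settled here. The block in KO gave Itgb1 −0.37 (adjusted p = 0.0055 from edgeR). Between genotypes, same-numbered samples did not pass 0.1 in every pair in either organ. Depth limits Gpr15, with 25 to 259 counts a sample.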
